A study of Xenopus laevis with 6 samples.

Results

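Captured nascent RNA of untreated Xenopus laevis (African clawed frog) embryos was compared between 5 and 7.5 hours post fertilization (hpf). The 4 libraries were the 2 labelled control at 5 hpf and the 2 labelled control at 7.5 hpf, of 6 libraries in the series, and all genes with a mean value of at least 12 over those 4 were kept, including genes listed at 0 at 5 hpf. That left 18835 of 50489 genes. The lowest mean inside this limit was 12 and the highest outside it 11.75. Both groups were wild type, had received 10 nl of 50 mM 5-ethynyl uridine (EU) at the 1-cell stage, for about 0.5 mM in the embryo, and grew in dilute Ringer's medium at 22 °C. The remaining 2 libraries, from embryos held in 0.2 mg/ml cycloheximide from 5 to 7.5 hpf, entered the fit only as a further estimate of the spread between replicates. The labels call every library blastula and give all of them 1 batch, and both replicates of each group came from 1 clutch. The p-values thus set the difference between the ages against the spread between replicates of these samples and say nothing of other clutches.

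EU is a uridine analogue that cells build into new RNA. Transcripts carrying it can be tagged with biotin by a click reaction, pulled down on streptavidin and sequenced, which separates them from the large stock of RNA that the egg inherits from the mother. The frog embryo is nearly silent in transcription during its first rapid divisions. At the midblastula transition the divisions slow, zygotic transcription begins in earnest, and the germ layers are specified by maternal factors such as VegT and beta-catenin and by the nodal, BMP, FGF and Wnt signals that they induce. Because EU was present from the 1-cell stage, RNA captured at 7.5 hpf holds any earlier transcript that was still present. Xenopus laevis is an allotetraploid, and most genes have an L and an S copy from the 2 parental genomes, called homeologs and marked by the suffix of the gene name.

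Values were gene counts scaled by the authors to a common level per library and rounded. Their sums ranged from 6680033 to 7742693 per library. Low values recur at regular steps, from which a single read at 5 hpf corresponded to about 1.85 units in replicate 1 and 2.31 in replicate 2, and at 7.5 hpf to about 1.18 and 0.648. In 5 hpf replicate 2 a step of 1.76, and at 7.5 hpf steps of 0.351 and 0.686, fitted nearly as well. A value of 0 at 5 hpf then allows up to 5.54 and 6.93 units in the 2 libraries (3 reads, counting error only), so a low transcript was harder to detect at 5 hpf. Across the genes tested the replicates correlated with r = 0.916 at 5 hpf and 0.845 at 7.5 hpf, and libraries of different ages with 0.674 to 0.824. Genes are not independent replicates. Markers of blood and muscle were low: the 7 entries for blood markers summed to 0 and 16 at 5 hpf and 0 and 5 at 7.5 hpf, and the 7 for muscle to 0 and 2 and then 46 and 41. Those for neurons summed to 0 and 0 and then 153 and 27, and those for multiciliated cells to 190 and 194 and then 413 and 229. Below, pairs of values are given as replicate 1 and replicate 2. Values are not divided by transcript length, fold changes were computed as log2(value + 1), so those of low genes come out too small, and errors of fold changes are standard errors (SE). L and S copies, tandem copies and repeat families may share reads, and the sources used here do not say whether counting used strand.

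Between the 2 ages more genes were called higher than lower in the captured RNA of untreated embryos. Values were scaled per library, so rises and falls are relative to the rest of the captured RNA, whose total amount was not measured. Scaled on totals, 1002 genes were higher and 285 lower, and scaled on oocyte transcripts 1396 and 47. Of 18835 genes tested, 1136 were higher at 7.5 hpf (6.03%) and 144 lower (0.765%; limma, Benjamini-Hochberg adjusted p under 0.05), and 3589 had an unadjusted p under 0.05. The rises had a median log2 fold change of 4.50, and of 2.28 in the 648 above 0 in both 5 hpf libraries. Of the rises, 733 were of at least 8-fold, 245 of these above 0 in both 5 hpf libraries. The falls had a median of -0.90, and 12 were of at least 4-fold. The median over all genes tested was 0.02. Fitted folds of genes at 0 at 5 hpf depend on the added 1, and the median of 4.50 and medians below include such genes. All 1280 called genes (6.8% of those tested) had groups that did not overlap, as did 46% of all genes tested, 25.3% with higher and 20.7% with lower values at 7.5 hpf. Genes called higher made up 6.90% and 7.35% of the summed value at 5 hpf and 21.6% and 15.9% at 7.5 hpf, and genes called lower went from 6.46% and 6.36% to 2.58% and 2.46%. Without the entry LOC108710739 alone, the latter shares were 1.97% and 1.83% and then 0.894% and 0.999%. In a bulk library more cells transcribing a gene and more RNA per cell cannot be told apart.

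**Figure D1:**
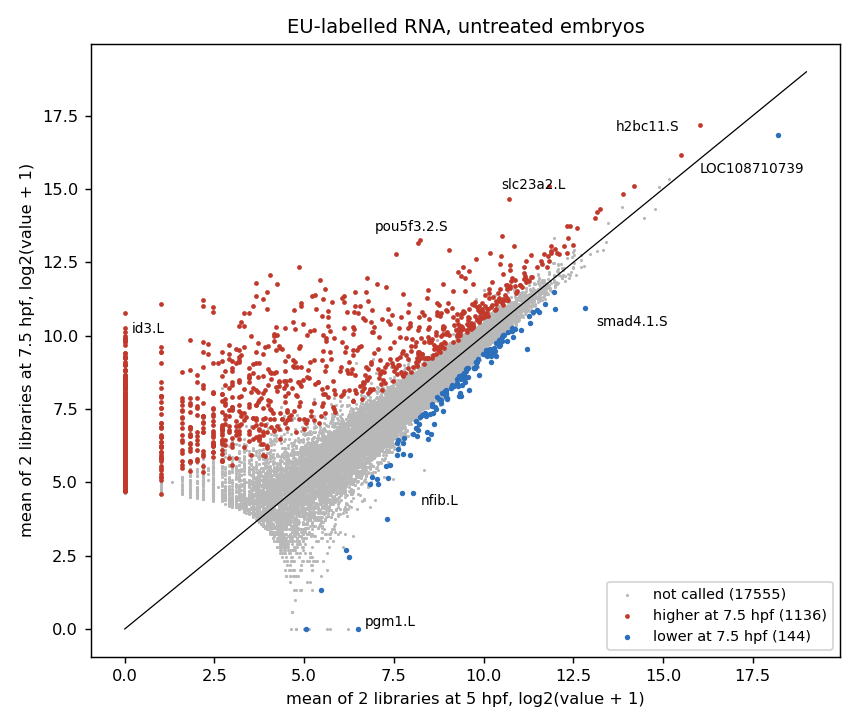
Mean value of the 2 untreated libraries at 7.5 hpf against the mean at 5 hpf, both as log2(value + 1), for each gene tested, with the line of equal values. The 1136 genes called higher (red) stretch upward from the axis where the 5 hpf mean is 0. The 144 called lower (blue) lie below the line, 59 of them at least 2-fold and 12 at least 4-fold lower.

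The share of genes called higher is given here by the level at 5 hpf. Of 492 genes listed at 0 in both 5 hpf libraries, 305 were called higher (62%), but a gene at 0 there passed the limit of 12 only through its 7.5 hpf values, so this share had to be large. The same holds for genes with a 5 hpf mean above 0 and up to 10, of which 27.2% were higher. The share was 3.74% from 10 to 100, 2.49% from 100 to 1000 and 6.82% from 1000 to 10000. Falls were called in 0.076%, 0.984% and 3.3% of the same 3 classes. Among the called rises, 648 were above 0 in both 5 hpf libraries and 183 in only 1. Gene lists below hold genes at or near 0 at 5 hpf in differing numbers and are set against 6.03% of all genes. For members at 0 at 5 hpf the fitting share is 62%, and from above 0 to 10 it is 27.2%. Calls rested on single libraries to different degrees. Without 7.5 hpf replicate 1, 420 were higher and 29 lower. Without 7.5 hpf replicate 2 the counts were 1253 and 574. With each library of the 6 left out in turn and under 11 other settings, 375 of the 1136 rises and 8 of the 144 falls kept their call throughout. Calls of single genes named below held under all of these alternatives that tested them unless their loss is stated. A gene that fell under another limit on low genes, such as 50, was not tested there. This was not counted as a loss, also among the 375. List counts, in contrast, leave such genes out.

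Among genes with a symbol that were listed at 0 at 5 hpf, the 10 with the highest value in their lower 7.5 hpf library are given, leaving out transfer RNA entries and entries named only by an identifier. An entry named btg-x, of the BTG family of antiproliferative proteins, stood at 0 and 0 at 5 hpf and at 2562 and 922 at 7.5 hpf (limma, adjusted p = 5.38e-07). The zinc finger genes sp5l.L and sp5l.S, of a family that responds to Wnt signals, went from 0 to 1515 and 535 and from 0 to 1263 and 386. Both copies were high in both 7.5 hpf libraries, and replicate 1 exceeded replicate 2. The hyaluronan synthase gene has2.L reached 984 and 362, and the related has-rs.S reached 894 and 459. The homeobox gene mixer.S went to 850 and 372. In flrt3.L, a membrane protein gene of the FGF response, the values of 386 and 309 were the closest replicates among the 10. The remaining 3 were id3.L, foxa4.L and chrd.1.S.

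**Figure D2:**
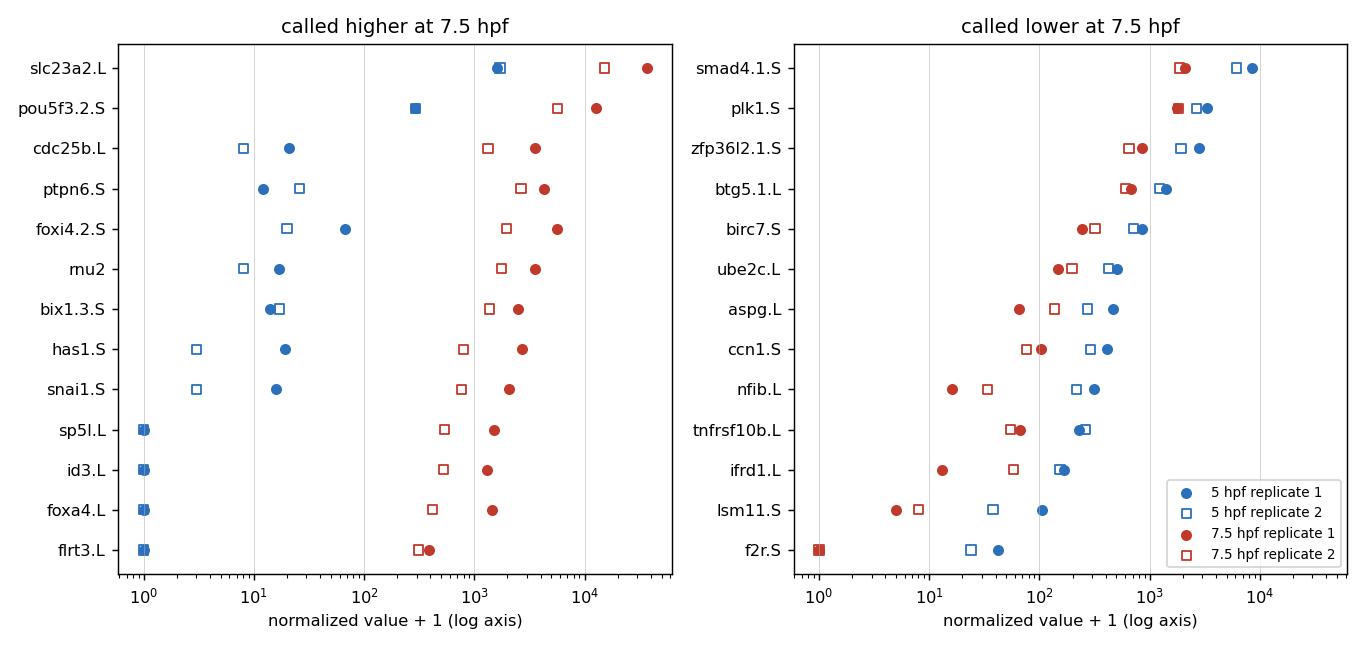
Value + 1 in each of the 4 untreated libraries on a log axis, for genes called higher (left) and lower (right) at 7.5 hpf, with circles for replicate 1 and squares for replicate 2. The 7.5 hpf points lie right of the 5 hpf points in every gene of the left panel and left of them in every gene of the right panel, and in the left panel replicate 1 is the higher of the 7.5 hpf points.

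Among genes already above 0 in both 5 hpf libraries, the 10 steepest rises joined gastrulation regulators with genes of general cell functions. The U2 spliceosomal RNA entry rnu2 went from 16 and 7 to 3521 and 1762 (limma, adjusted p = 1.69e-06). ptpn6.S, a protein tyrosine phosphatase gene, went from 11 and 25 to 4291 and 2651 (7.58 ± 0.33, adjusted p = 3.94e-07). The libraries of the 2 ages were far apart in both genes, by more than the spread of either pair. The mesoderm and epithelial-mesenchymal transition regulator snai1.S went from 15 and 2 to 2049 and 761, and has1.S, a further hyaluronan synthase gene, from 18 and 2 to 2714 and 797. The syntaxin gene stx19.L rose from 17 and 5 to 3177 and 942, and pdk4.S, a kinase that restrains pyruvate dehydrogenase, from 6 and 2 to 930 and 393. In these last 4 genes and in rnu2 at least 1 of the 5 hpf values was at about 3 estimated reads or fewer, so no fold is given. The remaining members of the 10 were eomes.L, cdc25b.L, bix1.3.S and foxi4.2.S.

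Genes of the families that include mesoderm and endoderm regulators were called higher in differing shares. All 10 members of the Mix and Bix family, homeobox genes induced by nodal and VegT, were called higher, against 6.03% of all genes tested, with a median log2 fold change of 6.15 against 0.02. In the list of nodal ligands and their antagonist lefty, 9 of 13 tested were higher, as were 7 of 10 T-box genes and 14 of 24 Sox genes. None of these families had a member called lower. The nodal list includes gdf3.S, which is also counted among the BMP and GDF ligands called higher below. Of 5 Gata genes 2 were higher, and gata4.S, an endoderm and heart regulator, went from 0 and 0 to 64 and 82. The Sox list also holds genes of neural and ectodermal cells. The counts without 7.5 hpf replicate 1 were 7 for Mix and Bix and 3 for nodal and lefty genes. T-box genes numbered at least 4 and Sox genes at least 6 over all alternatives. At 0 in both 5 hpf libraries were 4 of the 9 nodal and lefty genes called higher and 1 of the 10 Mix and Bix genes. The same held for 2 of the 7 T-box, 3 of the 14 Sox and both Gata genes called higher.

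Values are given here for several copies of the Mix and Bix family, in none of which the L to S ratio was called (adjusted p from 0.278 to 0.894 in 5 pairs). mix1.S, with values of 44 and 14 at 5 hpf, reached 2979 and 1454 (log2 fold change 6.32 ± 0.47, adjusted p = 8.09e-06). bix1.2.L went from 37 and 56 to 4675 and 1498 and its homeolog bix1.2.S from 0 and 9 to 2593 and 982. Both copies lay well above their 5 hpf values. The smallest rise was that of bix1.1.S, from 54 and 12 to 544 and 225 (3.71 ± 0.61, adjusted p = 0.00264). Its call was lost without 7.5 hpf replicate 1 (adjusted p = 0.142), as were those of bix1.1.L (0.0732) and mixer.L (0.0678). Over all alternatives the lowest adjusted p of the 3 were 5.1e-05, 5.63e-08 and 1.34e-06.

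Nodal ligands appeared at lower values. nodal.L, nodal1.L and nodal2.L were listed at 0 in both 5 hpf libraries and stood at 103 and 74, 62 and 30, and 78 and 53 at 7.5 hpf. gdf3.S, a TGF-beta ligand that partners nodal, rose from 15 and 16 to 649 and 213, and nodal3.1.L and nodal3.2.L rose from 46 and 44 to 280 and 132 and from 30 and 25 to 505 and 185. All 6 were higher in both 7.5 hpf libraries than in either 5 hpf library, which held for 25.3% of all genes tested. Without 7.5 hpf replicate 1 the calls of nodal.L (adjusted p = 0.0551) and nodal3.2.L (0.0609) were lost. The call of nodal1.L was lost in 3 alternatives, with adjusted p from 0.00645 to 0.0982, and that of nodal3.1.L in 4, from 0.00626 to 0.211. The T-box gene eomes.S, a mesendoderm regulator, went from 0 and 9 to 2810 and 1266, and tbxt.S, the brachyury gene of the mesoderm and notochord, from 0 and 0 to 185 and 152. vegt.L, whose RNA the egg stores at the vegetal pole, rose less, from 913 and 895 to 1604 and 1447 (log2 fold change 0.75 ± 0.14, adjusted p = 0.00722). Its call was lost without either 5 hpf library or without 7.5 hpf replicate 1 (adjusted p over all alternatives 0.00295 to 0.0654). The endoderm gene sox17a.L rose from 24 and 16 to 1022 and 489 (adjusted p = 6.99e-06).

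Genes that act on the ventral and on the dorsal side were among those called higher. All 10 Ventx genes, homeobox repressors of dorsal fate that BMP signals induce, were higher, against 6.03% of all genes, with a median log2 fold change of 6.33. ventx2.1.S went from 41 and 49 to 3680 and 1253 (5.55 ± 0.38, adjusted p = 4.93e-06), and ventx1.1.L from 11 and 9 to 654 and 288. On the dorsal side the organizer homeobox genes gsc.L and gsc.S, named after their values were seen, stood at 0 in both 5 hpf libraries and at 374 and 147 and 291 and 156 at 7.5 hpf. Secreted antagonists of BMP, Wnt and nodal were higher in 11 of 26 cases, and BMP and GDF ligands in 7 of 19 (42.3% and 36.8%, against the same 6.03%). Without 7.5 hpf replicate 1 the counts were 6 Ventx genes, 5 antagonists and 4 ligands. Of the genes called higher, 4 antagonists, 2 ligands and 2 Ventx genes were at 0 in both 5 hpf libraries.

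Among the ventral and dorsal ligands, bmp4.S went from 30 and 30 to 492 and 232, a log2 fold change of 3.45 ± 0.38 (limma, adjusted p = 0.000132). admp.S, a BMP-type ligand made by the organizer, went from 0 and 0 to 239 and 71. Each of these 2 genes was higher in both 7.5 hpf libraries than in either 5 hpf library, as was every gene called higher. chrd.1.L and chrd.2.L, which encode the BMP antagonist chordin, went from 0 to 555 and 190 and from 0 to 480 and 124. sfrp2.S, a secreted Wnt binding protein, rose from 15 and 5 to 603 and 198, and frzb.S, of the same family, from 0 and 0 to 260 and 69. The antagonist gene with the highest value at both ages, tsku.L, stood at 873 and 802 and then 933 and 955 and was not called (adjusted p = 0.587). Both noggin copies were called but lost the call in 9 and 7 alternatives, with adjusted p up to 0.221 for nog.L and 0.153 for nog.S. bmp7.2.L rose from 111 and 132 to 2030 and 477, the replicates 4.26-fold apart, and lost its call only with no limit on low genes (adjusted p = 0.0541).

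The FGF, Wnt and Notch ligand lists had few tested members, and 6.03% of all genes were called higher. Of genes with a 5 hpf mean above 0 and up to 10, which passed the limit only through 7.5 hpf values, 27.2% were. Every Notch ligand called higher was in that class, as were fgf8.S, wnt8a.L and wnt8a.S. The FGF gene fgf8.L rose from 9 and 14 to 886 and 501 (log2 fold change 5.77 ± 0.40, adjusted p = 5.11e-06) and was 1 of 2 of 4 tested FGF ligands called higher. wnt8a.L, a ventrolateral mesoderm Wnt, went from 4 and 0 to 313 and 159, and 3 of 10 Wnt ligands were higher. The count was 1 each for FGF, Wnt and Notch ligands without 7.5 hpf replicate 1. The maternal Wnt gene wnt11b.L stood at 458 and 419 and then 966 and 624, where its call (adjusted p = 0.0465) was lost in 11 alternatives, with adjusted p up to 0.292. Of 8 Notch ligand genes 3 were higher, among them the delta gene dlc.L, from 2 and 7 to 67 and 97, a gene in which 7.5 hpf replicate 2 was the higher. jag1.S, the member with the highest values, was at 433 and 467 and then 328 and 445 and was not called. Hes and Hey genes, the repressors that Notch induces, were higher in 13 of 25 cases and in 4 without 7.5 hpf replicate 1. hes1.L, named after its values were seen, rose from 57 and 72 to 714 and 254. Chemokines and their receptors were higher in 6 of 13 cases, but in 1 with no limit on low genes, and cxcl12.L went from 0 and 0 to 71 and 27. The cxcl12.L call was lost in the 4 untreated libraries alone (adjusted p = 0.0981).

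Several regulators of ectoderm, epidermis and neural tissue were called higher. Zic genes were higher in 5 of 7 cases, Irx genes in 5 of 6, Nkx, Dlx and Msx genes in 4 of 12 and Fox genes in 13 of 46, against 6.03% of all genes. The Fox list is not limited to these tissues and also holds foxh1.2.L, of the forkhead partners of Smads. The zinc finger gene zic1.S, a neural inducer, went from 30 and 12 to 1893 and 578 (log2 fold change 5.71 ± 0.49, adjusted p = 2.41e-05). irx1.S rose from 4 and 12 to 1023 and 438. The homeobox gene lhx5.L, of the forebrain, rose from 7 and 7 to 462 and 226, and dlx5.S, of the ectoderm border, from 11 and 39 to 810 and 344. In these genes, as in every gene called higher, the lower 7.5 hpf library was still above every 5 hpf library. foxi4.2.S, an ectodermal forkhead gene, went from 66 and 19 to 5607 and 1974 and its homeolog foxi4.2.L from 2 and 0 to 2950 and 1337. Among genes called higher, 2 of 5 Zic and 1 of 5 Irx genes stood at 0 in both 5 hpf libraries. So did 2 of 4 Nkx, Dlx and Msx genes and 5 of 13 Fox genes. Zic genes called higher numbered 3 without 7.5 hpf replicate 1. Irx genes fell to 2 with a limit of 50 in place of 12, and Fox genes to 7 and Nkx, Dlx and Msx genes to 1 in the 4 untreated libraries alone.

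Hox genes, which pattern the body axis and are textbook genes of later stages, gave small values. Of 7 tested, 3 were higher (42.9%, against 6.03% of all genes). hoxd9.L went from 0 and 2 to 106 and 78 and hoxa7.S from 9 and 2 to 114 and 107. hoxc11.S went from 2 and 0 to 51 and 36. These 3 had 5 hpf means above 0 and up to 10, so they passed the limit only through their 7.5 hpf values. Of all genes in that class 27.2% were called higher. Both 7.5 hpf libraries lay above both 5 hpf libraries in these genes, as in 25.3% of all genes tested. The hoxd9.L call (adjusted p = 0.000719) held in the 16 alternatives in which the gene was tested. That of hoxa7.S was lost without 7.5 hpf replicate 1 (adjusted p = 0.075) and that of hoxc11.S in 7 alternatives, with adjusted p up to 0.145. Of all 64 Hox entries, 33 were at 0 in the 4 untreated libraries. No nuclear receptor gene of 36 tested was called by limma in either direction, and 5 had an unadjusted p under 0.05. Of 9 genes of the Pax and Eya families and their homeobox partners none was called, and 2 had an unadjusted p under 0.05. Of all genes tested 6.8% were called, so no call in lists of 36 and 9 genes does not set these families apart.

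**Figure D3:**
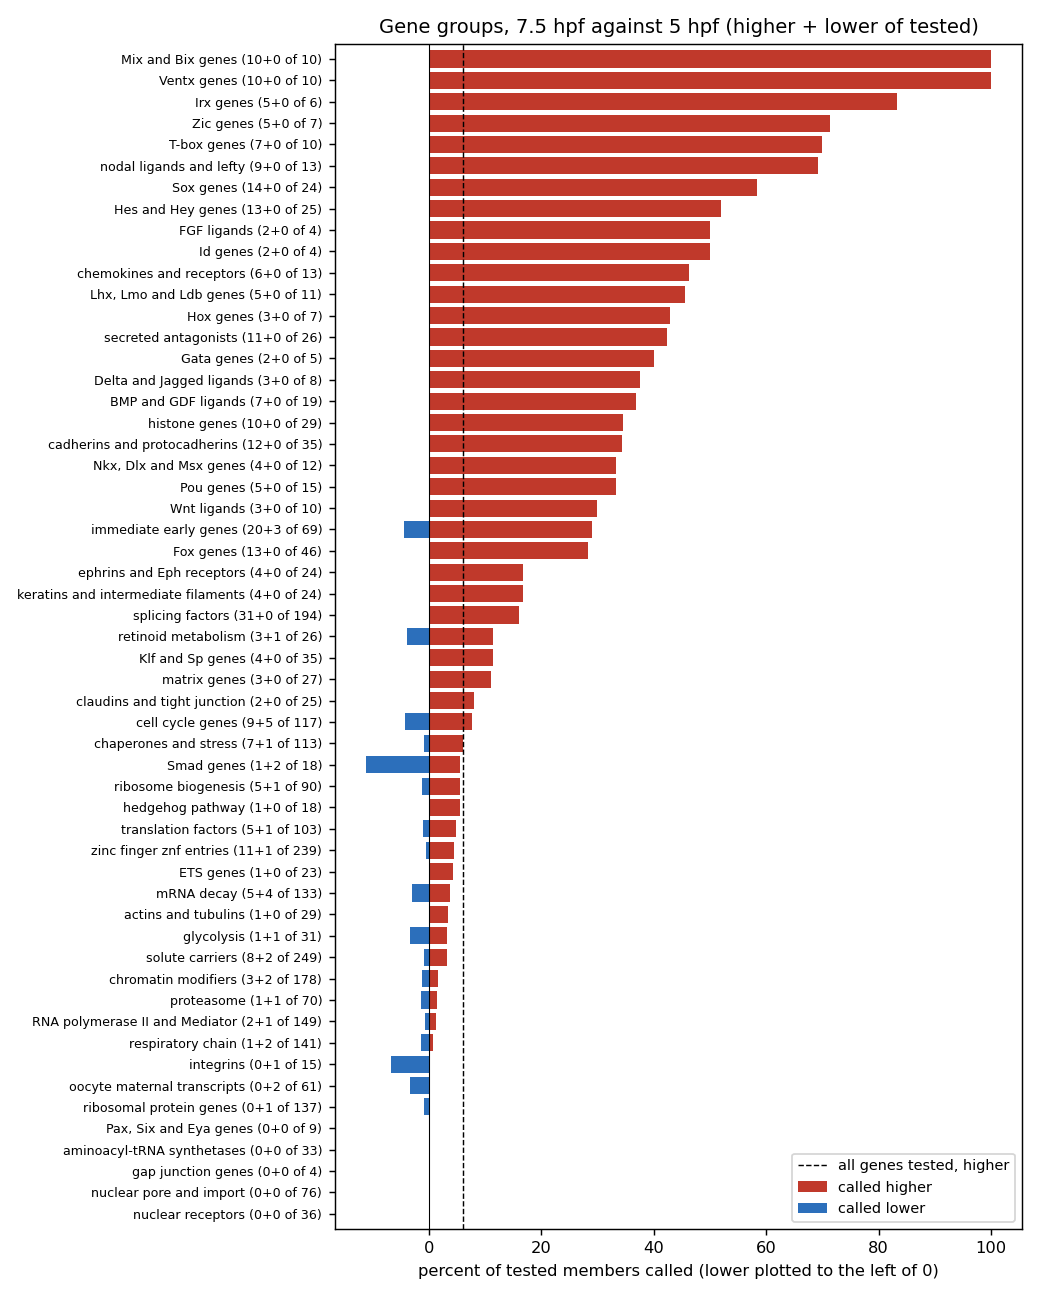
Percent of the tested members of each gene list called higher (red, right of 0) and lower (blue, left of 0) at 7.5 hpf, with the counts beside each name and a dashed line at the 6.03% of all genes called higher. The Mix and Bix and the Ventx lists reach 100%, and ribosomal protein, respiratory chain and nuclear pore genes sit at or near 0.

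Few genes of the following lists of general metabolism and gene expression were called, where 6.03% of all genes were higher and 0.765% lower. Differences from these shares were not tested. Of 137 ribosomal protein genes none was higher and rpl13.L alone was lower (0.73%, near the share of all genes), with 8 at an unadjusted p under 0.05. It stood at 215 and 165 at 5 hpf and 48 and 73 at 7.5 hpf, with its homeolog rpl13.S at 247 and 239 and then 257 and 266, and its call was lost in 7 alternatives (adjusted p up to 0.238). Of 141 respiratory chain genes 1 was higher and 2 lower, and none was called of 76 nuclear pore and import genes or of 33 aminoacyl-tRNA synthetase genes (limma, with 7 and 4 at an unadjusted p under 0.05). The medians of these lists were 0.07, -0.20, -0.11 and -0.23, against 0.02 for all genes. The largest subunit of RNA polymerase II did not pass the test, with polr2a.S at 29047 and 27053 and then 20781 and 19711 (adjusted p = 0.0631) and polr2a.L at 22800 and 22900 and then 17627 and 15206 (adjusted p = 0.0589). Both copies were lower in both 7.5 hpf libraries, as were 20.7% of all genes tested, and their adjusted p over the alternatives began at 0.00786 and 0.00958. cdk9.L, the kinase that releases paused polymerase, rose from 260 and 326 to 2273 and 885 (log2 fold change 2.28 ± 0.35, adjusted p = 0.00171). It was 1 of 2 of 149 RNA polymerase II and Mediator genes called higher (1.34%), a count of 1 to 5 over the alternatives.

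Of 194 splicing factor genes tested, 31 were higher (16%, against 6.03% of all genes, a difference that was not tested) and none lower, and the count ran from 8 without 7.5 hpf replicate 1 to 44. hnrnpdl.L, an RNA binding protein gene, rose from 1373 and 1439 to 7365 and 3795 (log2 fold change 1.91 ± 0.24, adjusted p = 0.000367). snrnp70.L and snrnp70.S, the copies of a U1 particle protein, rose from 4684 and 5578 to 15184 and 11996 and from 3698 and 4523 to 7975 and 7956. Both were higher in each 7.5 hpf library than in each 5 hpf library, as was every gene called higher. hnrnpu.L, named after its values were seen, rose from 5911 and 6473 to 15282 and 11005 (1.07 ± 0.16). hnrnpa1.S, the list member with the highest values, did not pass, at 12093 and 10597 and then 19439 and 10144, and its 2 ages overlapped.

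Histone genes were higher in 10 of 29 cases (34.5%, against 6.03% of all genes) and none was lower. h4c4.L rose from 742 and 687 to 3835 and 2119 (log2 fold change 2.00 ± 0.25, adjusted p = 0.00036), and h2bc11.S went from 42188 and 50341 to 82120 and 65306 (0.67 ± 0.17, adjusted p = 0.0377). The h2bc11.S call was lost in 11 alternatives, with adjusted p up to 0.269. Without 7.5 hpf replicate 1 the list kept 1 call. In translation, 5 of 103 factor genes were higher (4.85%), near the share of all genes, and 2 without either 5 hpf replicate 1 or 7.5 hpf replicate 1. eef1a1.S, a copy of the elongation factor that delivers tRNA to the ribosome, rose from 322 and 328 to 2339 and 965 (2.21 ± 0.32, adjusted p = 0.00107), while eif3a.S, at 4563 and 5073 and then 5282 and 4991, did not pass. Of 90 ribosome biogenesis genes 5 were higher (5.56%, likewise near that share), and 2 without the same libraries, and ncl.S, the nucleolin gene, rose from 3475 and 3599 to 7647 and 5897. The solute carrier slc23a2.L, a vitamin C transporter gene, stood at 1621 and 1707 and then at 36844 and 15272 (3.83 ± 0.31, adjusted p = 1.29e-05). It was 1 of 8 of 249 solute carrier genes called higher (3.21%), or of 2 without 7.5 hpf replicate 1.

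Of 117 cell cycle genes 9 were higher (7.69%, near the 6.03% of all genes) and 5 lower (4.27%, against 0.765%). The number lower was 1 without 5 hpf replicate 1, without 5 hpf replicate 2 and without 7.5 hpf replicate 1. cdc25b.L, the phosphatase that activates mitotic kinase, rose from 20 and 7 to 3524 and 1331 (adjusted p = 3.62e-06). The polo-like kinase gene plk2.L went from 0 and 0 to 174 and 86. Some genes that restrain or reshape the cycle also rose and are named after their values were seen. e2f7.L, a repressor of E2F targets, rose from 250 and 247 to 1748 and 849. The kinase inhibitor gene cdknx.L rose from 68 and 76 to 645 and 266. ccne2.L, a cyclin E gene, went from 52 and 51 to 1083 and 303. The 3 named last were higher in both 7.5 hpf libraries, as was every gene called higher. Not all such genes rose. wee2.L, of the same list, was called lower, from 1879 and 1683 to 1270 and 1181, a call whose losses are given below. The mitotic kinase gene plk1.S fell from 3287 and 2682 to 1769 and 1822 (-0.73 ± 0.14, adjusted p = 0.0087), and plk3.S fell from 1325 and 1458 to 839 and 760 (-0.80 ± 0.15). The plk1.S call was lost on the oocyte scaling and without 5 hpf replicate 1 or 7.5 hpf replicate 1 (adjusted p up to 0.124), and the plk3.S call without 5 hpf replicate 2 (0.0714). ccna1.L, the cyclin with the highest values, was at 4889 and 4605 and then 4850 and 4829 and did not pass.

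Immediate early genes, which many stimuli induce quickly, were higher in 20 of 69 cases (29%, against 6.03% of all genes) and lower in 3 (4.35%, against 0.765%). The counts were 5 higher without 7.5 hpf replicate 1 and 1 lower without 5 hpf replicate 1. ier5.L rose from 181 and 217 to 1563 and 918 (log2 fold change 2.59 ± 0.25, adjusted p = 5.58e-05). The phosphatase genes dusp1.S and dusp1.L, which switch off MAP kinases, rose from 103 and 60 to 1794 and 701 and from 33 and 23 to 1242 and 277. Genes for cell contact and matrix were called in part. Of 35 cadherin and protocadherin genes 12 were higher (34.3%, against 6.03%), but 2 without 7.5 hpf replicate 1. Of these 12, 6 were at 0 in both 5 hpf libraries and passed the limit only through their 7.5 hpf values. Among them pcdh18.L went from 0 and 0 to 157 and 105. The junction protein gene f11r.S rose from 643 and 675 to 1500 and 1917 (1.36 ± 0.17, adjusted p = 0.000302), and epha4.L, an ephrin receptor gene, from 0 and 0 to 211 and 99. Fibronectin, fn1.S, was at 2637 and 2527 and then 1982 and 3010 and did not pass.

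The genes that fell changed by less and depended more on single libraries. The number of genes called lower was 17 and 28 without 5 hpf replicate 1 and 2, 29 and 574 without 7.5 hpf replicate 1 and 2, and 56 and 53 without cycloheximide replicate 1 and 2. Of these, 15, 24, 25, 87, 56 and 53 were among the 144. It was 285 when libraries were scaled on their totals, which shifted the median of all genes to -0.11, and 47 when scaled on oocyte transcripts, which shifted it to 0.22. The 8 that kept their call throughout are given here because of that and were thus chosen after their values were seen. They were smad4.1.S, zfp36l2.1.S, birc7.S, btg5.1.L, dclre1a.L, tacc3.L, ncapd2.S and the unnamed entry XB5953084.L.

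Several of the 8 have known roles in the cell. smad4.1.S encodes the Smad that partners the receptor-activated Smads of nodal and BMP signalling, and it went from 8557 and 6096 to 2087 and 1864 (log2 fold change -1.87 ± 0.20, adjusted p = 0.000107). zfp36l2.1.S, of a family that marks mRNAs for decay, went from 2807 and 1928 to 857 and 650 (-1.64 ± 0.21, adjusted p = 0.000471). Every 7.5 hpf value lay below every 5 hpf value in these genes, as in every gene called lower. Their replicates at 7.5 hpf were close. birc7.S, an inhibitor of apoptosis, went from 849 and 708 to 244 and 318 (-1.47, adjusted p = 0.000961). tacc3.L, a protein of the mitotic spindle also called maskin in Xenopus, went from 616 and 686 to 297 and 230 (-1.31), and ncapd2.S, a condensin subunit, from 2495 and 2537 to 1212 and 1560 (-0.87). dclre1a.L, a nuclease of DNA crosslink repair, went from 1223 and 1135 to 498 and 606 (-1.10).

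The largest falls by size came from genes with few counts. An entry of pgm1.L, phosphoglucomutase, stood at 98 and 81 at 5 hpf and was listed at 0 in both 7.5 hpf libraries, while the other entry of that name stood at 0 and 39 and then 101 and 88. f2r.S, a thrombin receptor gene, went from 41 and 23 to 0 and 0. The transcription factor gene nfib.L went from 309 and 217 to 15 and 33 (log2 fold change -3.48 ± 0.68, adjusted p = 0.00877), and lsm11.S, of the histone mRNA processing particle, from 105 and 37 to 4 and 7. In all 4 the 2 ages were apart, as in every called gene. Their calls were lost in 8, 9, 4 and 11 alternatives, each including both 5 hpf libraries and 7.5 hpf replicate 1 left out. Adjusted p reached 0.322, 0.326, 0.144 and 0.398. Among the 12 largest falls the others were ifrd1.L, tmem178.2.L, tnfrsf10b.L, nt5dc3.L, ccn1.S, aspg.L, slc46a1.L and txndc15.L. Of these ccn1.S went from 412 and 291 to 102 and 76 (-1.96 ± 0.32, adjusted p = 0.00265), lost without 5 hpf replicate 1 (0.0604). The others each lost their call without 5 hpf replicate 1 and without 7.5 hpf replicate 1, among other settings, with adjusted p up to between 0.125 and 0.258.

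Of 61 listed transcripts that the oocyte stores for the embryo none was higher by limma, against 6.03% of all genes. Called lower were 2 (3.28%, against 0.765% of all genes), and 13 had an unadjusted p under 0.05. These 2 were zar2.S, from 1659 and 1651 to 1109 and 1144, and wee2.L, from 1879 and 1683 to 1270 and 1181. The replicates of each age were close in both genes, but their calls (adjusted p = 0.0302 and 0.041) were lost in 9 and 10 alternatives, with adjusted p up to 0.195 and 0.276. The list does not hold every stored transcript. It leaves out vegt.L and the maternal Wnt gene wnt11b.L, which were called higher as given above, with losses under alternatives. The median of the list was -0.15. Such mRNAs were made before EU was given, so what their captured values represent was not tested.

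Related genes, some called higher and others not called, are set side by side here, in families picked after their values were seen. Which of them the egg stores was not measured. The pou5f3 genes of the POU family share functions with mammalian Oct4. Of these, pou5f3.2.S rose from 287 and 291 to 12726 and 5672 and pou5f3.1.L from 13 and 7 to 457 and 220. pou5f3.3.L, the oocyte form, was at 1996 and 2240 and then 1887 and 2199 (log2 fold change -0.05, adjusted p = 0.875). The pou5f3.2.S values of the 2 ages were far apart, and those of pou5f3.3.L overlapped. foxh1.2.L, of the forkhead partners of Smads, rose from 30 and 42 to 3632 and 1622, whereas foxh1.L stood at 3899 and 4296 and then 3301 and 3197 and did not pass. zic2.L was at 3162 and 3127 and then 3227 and 3004, beside the rise of zic1.S. id2.S was at 8543 and 7461 and then 8952 and 5234, while id3.L, an inhibitor of basic helix-loop-helix factors and a BMP target, went from 0 and 0 to 1301 and 525. A gene not called is not shown to be unchanged.

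BTG genes split within 1 family of tandem copies. btg5.1.L fell from 1401 and 1226 to 673 and 602 (log2 fold change -1.04 ± 0.16, adjusted p = 0.00135), and btg5.1.S was at 543 and 421 and then 262 and 287, a call lost in 11 alternatives (adjusted p up to 0.333). btg5.3.L rose from 0 and 7 to 1279 and 472 and btg5.2.S from 17 and 0 to 1012 and 272, the latter lost without 7.5 hpf replicate 1 (adjusted p = 0.124). btg1.L rose from 114 and 116 to 770 and 320 (adjusted p = 0.00259).

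In most homeolog pairs neither copy was called, and where 1 was called higher the other often was too. Of 4596 pairs with both copies tested, 136 had both copies higher, 113 the L copy alone and 76 the S copy alone. Both copies were lower in 2, the L copy alone in 33 and the S copy alone in 41, and neither was called in 4196. The 1 pair called in opposite directions is counted under both L alone higher and S alone lower. The L copies were higher in 4.42% of 8657 symbols tested and the S copies in 4.58% of 6509. Of pairs with L higher, 54.6% also had S higher, and of pairs with S higher 64.2% had L higher. A call in 1 copy does not show that the copies differed, so the L to S ratio was tested itself in 6259 pairs. It was called in 15 (0.24%), 7 toward L (0.112%) and 8 toward S (0.128%), with 630 at an unadjusted p under 0.05. This count did not hold: it was 0 with no limit on low genes, in the 4 untreated libraries alone and with any library but 7.5 hpf replicate 2 left out, and 59 without that library.

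**Figure D4:**
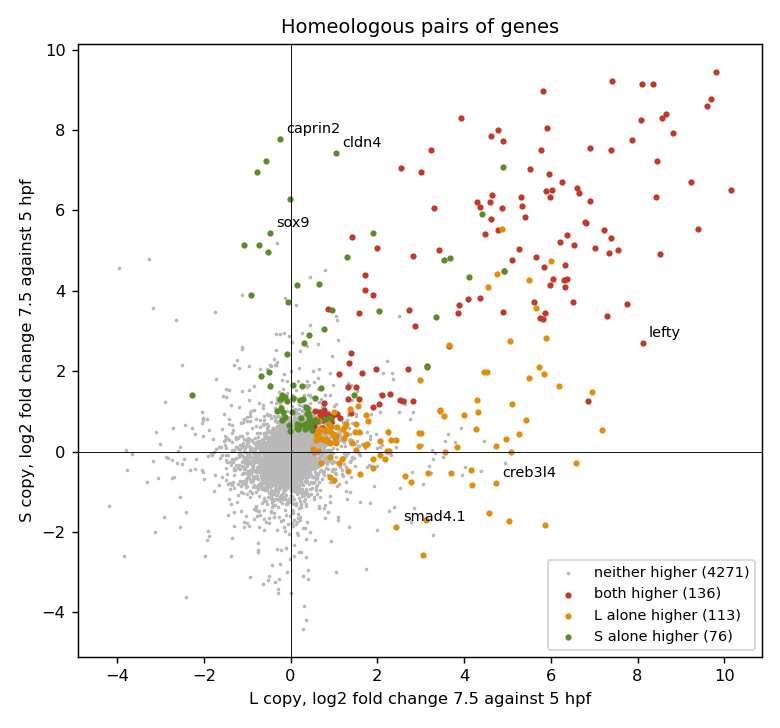
Log2 fold change from 5 to 7.5 hpf of the S copy against that of the L copy for the 4596 pairs with both copies tested. Pairs with both copies higher (red, 136) lie in the upper right, while pairs with only L (orange, 113) or only S (green, 76) called higher spread along the axes.

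In most pairs whose ratio was called, 1 copy or both stood at 0 at 5 hpf, where the size of the change depends on the added 1 and is not given. The 5 pairs shifted most toward S were caprin2, iqsec3, krt70, pknox1 and cldn4. caprin2.S, an RNA binding protein gene, went from 0 and 0 to 280 and 172 beside caprin2.L at 1858 and 1886 and then 1446 and 1731 (limma on the ratio, adjusted p = 0.0391). cldn4.S, a claudin of tight junctions, went from 0 and 0 to 309 and 95 and cldn4.L from 218 and 220 to 765 and 265. The S copies of both pairs were called higher and the L copies were not. krt70.S, a keratin gene, reached 248 and 124 with krt70.L at 0 throughout. Both copies of krt70 stood at 0 at 5 hpf, as did both copies of gucy1a1, a pair called toward L. Their 5 hpf ratio came from the added 1 alone, so these calls show no change of ratio. iqsec3.S, of a family of exchange factors, reached 163 and 138 from 0 and 0. The S copy of pknox1 was at 8 and 7 at 7.5 hpf. sox9, the neural crest and cartilage regulator, was also called toward S and is named after its values were seen. sox9.S rose from 15 and 7 to 717 and 340 while sox9.L was at 231 and 116 and then 155 and 88 (limma on the ratio, adjusted p = 0.0284). The 5 shifted most toward L were creb3l4, gucy1a1, lefty, znf883l and vangl1. creb3l4.L, a membrane-bound transcription factor gene, rose from 22 and 23 to 699 and 554 while creb3l4.S was at 43 and 51 and then 38 and 19 (log2 change of the L to S ratio 5.51 ± 0.37, adjusted p = 0.0391). lefty.L went from 0 and 0 to 455 and 168 against 9 and 16 and then 133 and 52 for lefty.S, whose own call was lost in 6 alternatives (adjusted p up to 0.201). The L copies of gucy1a1, znf883l and vangl1 had values of at most 45 at 7.5 hpf.

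In 1 pair the copies were called in opposite directions. smad4.1.L rose from 24 and 23 to 196 and 89 (log2 fold change 2.44 ± 0.53, adjusted p = 0.0153) as smad4.1.S fell. The test of the ratio between them did not pass (adjusted p = 0.0949), and the smad4.1.L call was lost in 5 alternatives (adjusted p up to 0.178). The retinoic acid degrading enzyme gene cyp26a1.S rose from 35 and 12 to 522 and 197, a call lost without 7.5 hpf replicate 1 (adjusted p = 0.0678), whereas cyp26a1.L stood at 556 and 414 and then 310 and 212 and was not called. Here too the ratio missed the threshold (adjusted p = 0.0813).

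Non-coding RNA was represented by few entries. Besides rnu2, the 7SK RNA entry rn7sk, which restrains the polymerase elongation kinase, stood at 569 and 440 at 5 hpf and 1482 and 760 at 7.5 hpf (log2 fold change 1.08 ± 0.29, adjusted p = 0.0483), a call lost in 11 alternatives (adjusted p up to 0.39). Of 788 entries picked by names that begin like those of transfer RNA 65 were tested, 26 were called higher and none lower. The 65 include trnau1ap.S, by its name the gene of a protein associated with a tRNA, which was not called. Of the 65, 52 were at 0 in both 5 hpf libraries, so they passed the limit only through their 7.5 hpf values and could not be called lower. Of all genes at 0 at 5 hpf, 62% were called higher. Copies of identical sequence share reads, and the 26 entries held 15 distinct sets of values. All 788 entries summed to 163 and 142 at 5 hpf and 12585 and 4593 at 7.5 hpf. To these sums trnau1ap.S gave 69 and 119 and then 176 and 112, so it made up much of the 5 hpf sums. Among them trnar-ucg, an arginine tRNA named after its values were seen, had an entry at 0 and 0 and then 813 and 391, whose call (adjusted p = 3.4e-06) was not examined under the alternatives. The sum was higher in both 7.5 hpf libraries, and higher in replicate 1 than in replicate 2.

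Some of the rises lay next to each other in the genome. Gene order was taken from the RefSeq table of assembly Xenopus_laevis_v10.1, in which 16462 of 18480 uniquely named genes tested were found (89.1%). Of 824 of these called higher, 146 (17.7%) had an adjacent RefSeq gene that was also called higher, against 642 of 15638 other genes (4.11%). The longest run held 6 genes, the Ventx cluster on the L genome with the entry XB5817455.L, which went from 231 and 203 to 995 and 429 and lost its call in 4 alternatives (adjusted p up to 0.12). The Mix and Bix genes formed a run of 5 on S and of 4 on L. Further runs of 3 or more included nodal3.1.L with nodal3.2.L and locus identifiers, ventx2.2.S with ventx1.1.S and ventx2.1.S, esr-5.L with hes7.2.L and hes7.1.L, has1.S with has-rs.S and a locus identifier, and sox11.L with cmpk2.L and rsad2.L. esr-5.L, a Hes-related gene, rose from 35 and 32 to 721 and 193, and rsad2.L, an antiviral protein gene, from 0 and 0 to 73 and 33, with the call lost in 2 alternatives (adjusted p up to 0.0782). Both genes were higher in both libraries at 7.5 hpf, as was every gene called higher. The calls of cmpk2.L and sox11.L were lost in 9 and 4 alternatives (adjusted p up to 0.21 and 0.145) and those of hes7.1.L and ventx1.1.S without 7.5 hpf replicate 1 (0.0597 and 0.0723). Tandem copies are similar in sequence, and how far shared reads bear on these runs was not tested.

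The 2 libraries at 7.5 hpf differed most in the genes that rose. Replicate 1 was the higher in 1011 of 1136 genes called higher, with a median ratio of 1.95, and in 437 of the 492 genes at 0 at 5 hpf, with a median of 2.61. Genes not called had a median ratio of 1 and genes called lower 0.932. At 5 hpf the median ratio of replicate 1 to replicate 2 was 1 in the genes called higher and 1.06 in those called lower. Genes at 0 in both 5 hpf libraries have a ratio of 1 there from the added 1 alone. In the 648 genes called higher and above 0 in both, the median was 0.948 at 5 hpf and 1.79 at 7.5 hpf. At 7.5 hpf ptpn6.S was 1.62-fold, id3.L 2.48-fold and foxa4.L 3.47-fold higher in replicate 1. The part of embryo age, capture or depth in this difference was not tested. Without replicate 1, 449 genes were called, and without replicate 2, 1827, against 1280 with both.

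**Figure D5:**
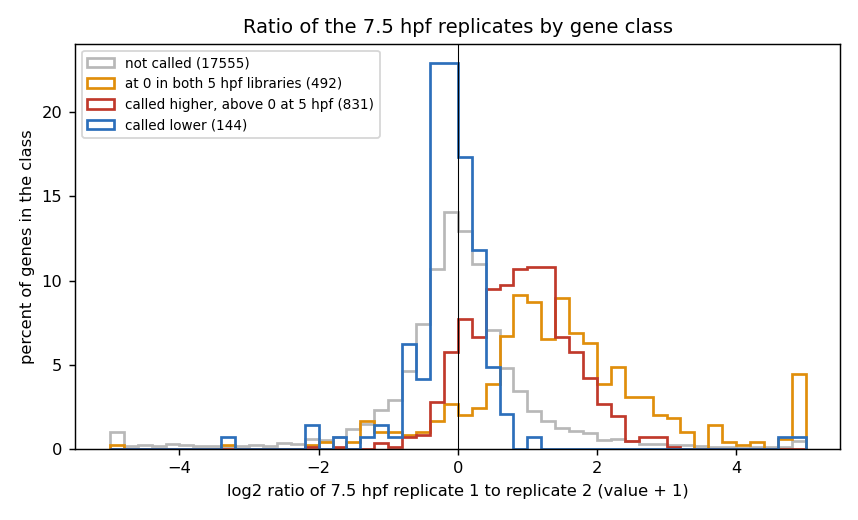
Distribution of the log2 ratio of 7.5 hpf replicate 1 to replicate 2, as (value + 1), in percent of each class, with ratios beyond 5 in size drawn in the end bins. Genes not called (grey) and called lower (blue) centre near 0, whereas genes at 0 at 5 hpf (orange) and other genes called higher (red) lie to the right.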

How the data were processed

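Captured EU-labelled RNA from 6 libraries was available as 1 table of 50489 genes. Per the submitters' processing notes, Salmon 0.12.0 and DESeq2 were used. The values deposited by the authors were treated as a score, that is gene-level counts that the authors scaled by library and then rounded. Since these are not raw counts, no count model was fitted. The genome build, annotation, filters and strand setting are not given in the sources. Genes with a mean of at least 12 over the 4 control libraries were kept, and log2(value + 1) was fitted for 3 groups over all 6 libraries with limma 3.58.1 in R 4.3.3, with empirical Bayes moderation along a trend with abundance. Calls had a Benjamini-Hochberg adjusted p under 0.05. Homeolog pairs were tested in the same way on log2(L + 1) minus log2(S + 1). For pairs the trend of the spread ran along the mean of that difference, not along abundance. The pipeline was tested on simulated data. Gene order came from RefSeq, assembly Xenopus_laevis_v10.1. Python 3.11.15, pandas 2.3.3, numpy 2.4.6 and matplotlib 3.10.9 were used for summaries and plots.

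The members and lists were chosen with earlier results of these data known. Genes named were, by rule, the 10 largest rises among genes above 0 in both 5 hpf libraries, the 10 highest rises from 0, the 12 largest falls without overlap, up to 3 called members in each direction and the highest member of each list, the 5 most abundant genes of each age and the 5 pairs shifted most in each direction. Not every gene the rule admits is printed, and others are said to be chosen after their values were seen. Depth is known only from the spacing of low values, and floors cover counting error only. The tried alternatives were pseudocounts of 0.5 and 5, other limits on low genes, 3 other scalings, the 4 control libraries alone, library weights, the replicate number as a block, and each library left out. The replicate numbers are not known to pair the samples. Their deviations correlated with r = -0.001, -0.026 and 0.133 between groups, which cannot exclude pairing. The groups of 2 allow no exact permutation test to reach the threshold, and none was used. A result that is withheld is not reported here.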

Additional observations from a re-analysis of the deposited data

How the results depend on the processing

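The main analysis called 1280 genes, 1136 higher and 144 lower. With no limit on low genes it called 665 (628 higher and 37 lower), and in the 4 control libraries alone 808 (748 and 60). The number lower was 285 when scaled on totals, where 77.9% of calls were higher against 88.8% in the main analysis, 47 when scaled on oocyte transcripts and 88 with library weights. With 1 library left out at a time, 449 to 1827 genes were called, 420 to 1253 higher and 17 to 574 lower. No call of a gene named in the text changed direction in these alternatives.

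The replicate number as a block gave 1500 calls, 1288 higher and 212 lower, and 0 homeolog pairs. Whether the numbers pair the samples is not known, and the planned fit had no block.

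The homeolog count of 15 was 23 with a pseudocount of 5, 2 with library weights, 0 with no limit on low genes and in the 4 control libraries alone, and 0 to 59 with 1 library left out. A trend of the spread on the abundance of the pair, chosen after seeing the data, gave 40, of which 10 were among the 15. The cause of these shifts was not tested. A value of 0 at 5 hpf allows up to 5.54 and 6.93 units in the 2 libraries (3 reads, counting error only).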

Other observations

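Some markers of tissues that form later appeared at 7.5 hpf. The 7 entries for neuron markers summed to 0 in both 5 hpf libraries and to 153 and 27 at 7.5 hpf. In them elavl3.L, an RNA binding protein gene of new neurons, stood at 48 and 15, and nefm.S, a neurofilament gene, at 60 and 9. Of the others nefm.L stood at 15 and 3, tubb2b.L at 16 and 0 and tubb2b.S at 14 and 0, too low to be tested. The snap25.L and snap25.S entries were at 0 throughout. The muscle creatine kinase gene ckm.L went from 0 and 0 to 45 and 37 (limma, adjusted p = 0.0131), while the other 6 muscle entries had values of at most 4. The calls of elavl3.L, nefm.S and ckm.L were lost in 5, 9 and 4 alternatives, with adjusted p up to 0.209, 0.256 and 0.105. The 7 entries for multiciliated cells summed to 190 and 194 and then 413 and 229. Of them foxj1.S went from 0 and 0 to 127 and 23 and foxj1.L from 0 and 0 to 39 and 14. dnah9.S, a dynein gene, was at 172 and 194 and then 212 and 162 and was not called. Nor was tuba1a.L, at 18 and 0 and then 21 and 25. At 7.5 hpf tekt2.L stood at 14 and 0, tuba1a.S at 0 and 5 and tekt2.S at 0 and 0. Of 7 cement gland and epidermis entries ag1.L went from 0 and 0 to 38 and 16, and the others had values of at most 3. foxj1.S, foxj1.L and ag1.L were called higher, and these calls were not examined under the alternatives. Like elavl3.L, nefm.S and ckm.L, they passed the limit only through their 7.5 hpf values. Of all genes tested that were at 0 in both 5 hpf libraries, 62% were called higher. Germ plasm markers, RNA of the future germ cells, summed to 3446 and 3036 and then 2877 and 3491, so the 2 ages overlapped.

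Among the most abundant entries, LOC108710739, which has no gene name in the table, stood at 300032 and 307512 at 5 hpf and at 130187 and 103888 at 7.5 hpf (log2 fold change -1.39 ± 0.25, adjusted p = 0.00524). Its call was lost without 5 hpf replicate 2 and without either 7.5 hpf library, with adjusted p up to 0.0855. Other entries with no gene name went the other way. Xelaev18003734m stood at 65064 and 69025 and then 112190 and 184500 (adjusted p = 0.0298), a call lost in 9 alternatives that include each library left out (adjusted p up to 0.198). LOC108705992 stood at 18469 and 19173 and then 40892 and 29767 (adjusted p = 0.00501), a call lost without 5 hpf replicate 1 (0.0604) and without 7.5 hpf replicate 1 (0.0612). LOC108698363 and LOC108698366 were not called, at 34972 and 38348 and then 39768 and 43053, and at 30976 and 29875 and then 35325 and 33032.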
